A study of Mus musculus with 8 samples.

Results

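The inter-alpha-trypsin inhibitor heavy chains, the hyaluronan synthases and the hyaluronan receptor Cd44 were examined in non-sorted total mammary cell suspensions of parous and virgin mice. Members were the probe sets whose single gene symbol in the array annotation was Itih1, Itih2, Itih3, Itih4, Itih5, Has1, Has2, Has3, Hyal1 or Cd44. This gave 1 probe set each for 9 of the 10 genes, of 19935 genes named alone by a probe set and 34760 probe sets in all. The 2 probe sets that name the hyaluronidase Hyal1 also name Naa80, so no value is given for Hyal1. The genes were chosen with results of the parous against virgin contrast already known, so their values in it are a description, and the adjusted p-values given with them are no independent evidence.

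Parous FVB/NHanHsd mice were mated when 42 days old, nursed their pups for 21 days and then underwent involution, for which the labels give 28 days and the methods a longer interval. Virgin FVB/NHanHsd mice of the same age served as controls. Each group had 4 Affymetrix Mouse Gene 1.0 ST arrays, and each array held RNA of the fourth mammary glands pooled from 5 mice, with no allele or agent in either group. Lymph nodes, adipocytes and red blood cells had been removed and fibroblasts had been reduced by attachment, and no source used here gives the estrous stage of a pool.

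Hyaluronan is a long sugar polymer of the extracellular matrix. The membrane enzymes Has1, Has2 and Has3 spin it out of the cell, hyaluronidases cut it, and Cd44 on the cell surface binds it. The heavy chains Itih1 to Itih5 are secreted proteins. Itih1 to Itih4 are known best from liver and blood plasma. There some of them are linked through a chondroitin sulfate chain to bikunin, a protease inhibitor made from the precursor Ambp. The enzyme-like protein TSG-6, encoded by Tnfaip6, moves heavy chains from this complex onto hyaluronan, which cross-links the polymer, and this matrix surrounds cells in inflamed tissue and in the ovulating follicle.

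Among the 9 members, Itih2 alone passed the study's criteria: more than 1.5-fold, with a limma p under 0.05 after Benjamini-Hochberg adjustment over all probe sets, and linear expression averaging over 4. It was 7.03-fold lower in parous suspensions. Over the array 0.397% of probe sets passed in either direction and 0.158% passed as lower in parous suspensions. The groups did not overlap for 3 of the 9 members (Itih2, Has1 and Has3), against 7.60% of all probe sets, and 3 of the 9 had an unadjusted p under 0.05, against 11.4% of all probe sets. Because the members were selected on this contrast, nothing is read from these shares. The log2 fold change, parous minus virgin, was above 0 for 6 members and below 0 for 3, with a median of 0.09, and its median over all probe sets was 0.00.

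**Figure D1:**
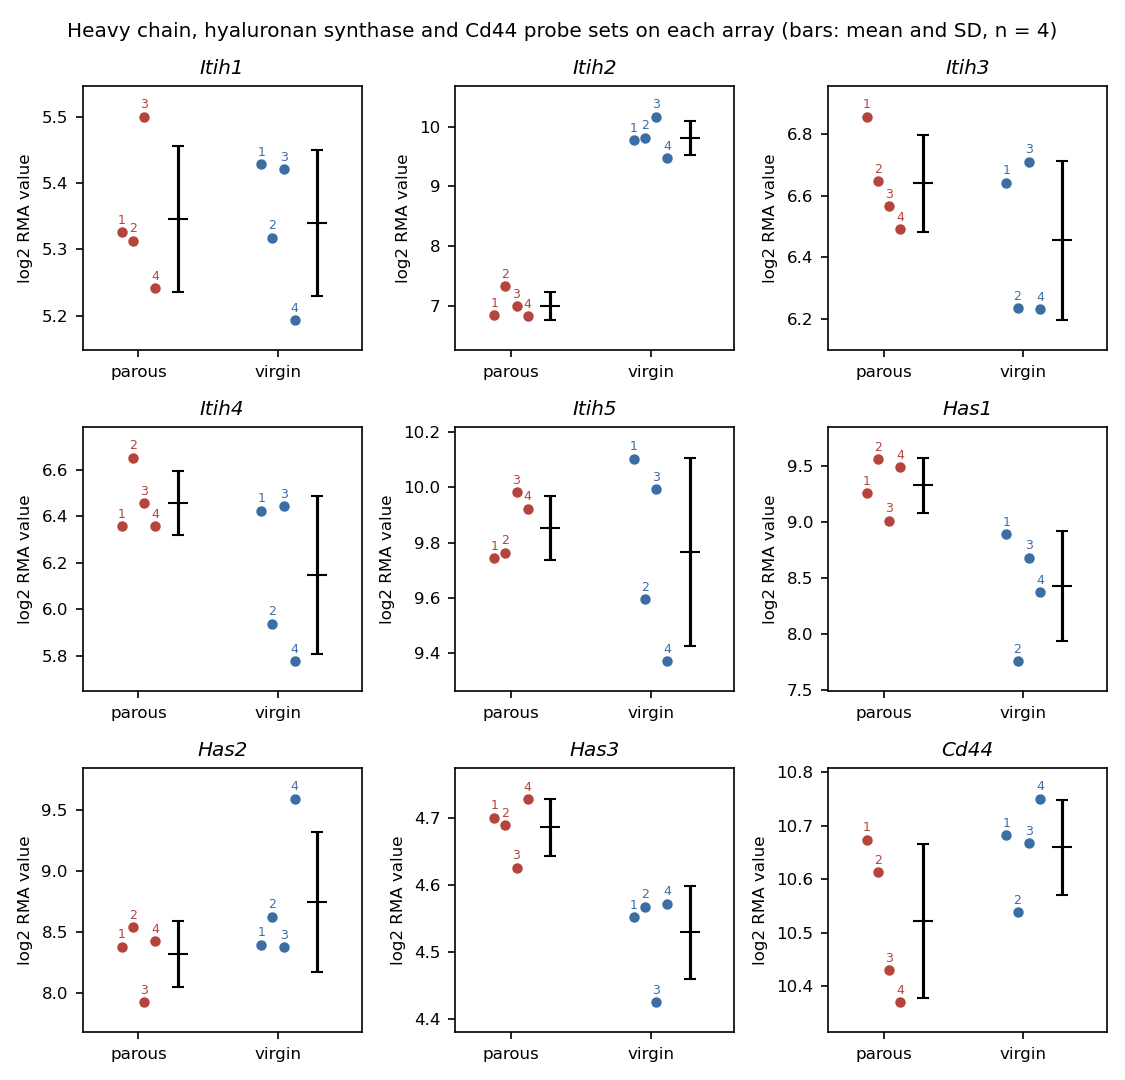
Log2 RMA values (y axis, a separate range in each panel) of the 9 member probe sets on each parous (red) and virgin (blue) array, with replicate numbers beside the points and the mean and SD of 4 arrays in black. The parous and virgin points of Itih2 lie at 6.82 to 7.33 and 9.47 to 10.17, while those of Itih5 overlap.

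Itih2 lies on chromosome 2 beside Itih5, and its expression differed between the groups while that of Itih5 did not pass the test. In the RefSeq annotation of mouse build GRCm38.p6, Itih2 occupies chr2:10094591-10130683 on the minus strand and Itih5 chr2:10153536-10256529 on the plus strand, so the genes point away from each other with 22.9 kb between them. The 250 bases before the start site that the RefSeq promoter table uses for each gene are shown because these adjacent heavy chain genes had unlike values. They are written 5′ to 3′ on the strand of the gene, at chr2:10130684-10130933 for Itih2 and chr2:10153293-10153542 for Itih5, with capitals for the letters GGGCGG, known as a GC box. The Itih2 window ends where the gene begins, and the last 7 bases of the Itih5 window lie within the gene interval given above, because the start site of the promoter table lies inside it.
Itih2: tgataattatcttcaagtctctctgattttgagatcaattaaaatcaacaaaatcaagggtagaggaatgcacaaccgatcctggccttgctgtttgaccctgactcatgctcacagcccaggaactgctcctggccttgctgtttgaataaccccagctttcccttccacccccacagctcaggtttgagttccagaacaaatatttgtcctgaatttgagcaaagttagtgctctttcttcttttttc
Itih5: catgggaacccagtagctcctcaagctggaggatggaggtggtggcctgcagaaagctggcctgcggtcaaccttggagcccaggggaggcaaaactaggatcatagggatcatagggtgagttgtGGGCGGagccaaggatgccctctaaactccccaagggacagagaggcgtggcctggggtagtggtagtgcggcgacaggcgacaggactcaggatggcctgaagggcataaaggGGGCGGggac
Of these 250 bases 43.2% were G or C before Itih2 and 61.2% before Itih5, against a median of 52.4% over 32851 windows of the same length. The GC box, searched on both strands, began 124 and 10 bases before that start site of Itih5 and was found in 32.7% of all windows. Neither window held TATAAA (the TATA box, in 12.4% of windows), CCAAT (in 33.8%) or TTCNNNGAA, the letters bound by STAT5 (in 7.0%), and the Itih2 window held no GC box. These matches are descriptions of letters and no factor was measured.

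Itih2 had log2 values of 6.84, 7.33, 6.99 and 6.82 in parous replicates 1 to 4, against 9.78, 9.82, 10.17 and 9.47 in virgin replicates 1 to 4. All parous arrays were thus more than 2 log2 units under the lowest virgin array. The means were 6.99 ± 0.24 in parous and 9.81 ± 0.29 in virgin suspensions (SD, n = 4 pools each), and the log2 fold change was -2.81 (SE 0.17, 95% confidence interval -3.20 to -2.43, adjusted p = 0.000679 in limma). By p-value Itih2 was number 4 of all probe sets. In a mixed cell suspension, fewer cells that express a gene and less RNA per cell cannot be told apart. The value was -2.98 when virgin replicates 2 and 4, which stand apart from the other arrays (described further on), were both left out.

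Itih5, the heavy chain next to Itih2, had log2 values of 9.74, 9.76, 9.98 and 9.92 in parous replicates 1 to 4, against 10.10, 9.60, 9.99 and 9.37 in virgin replicates 1 to 4. The groups overlapped, and virgin replicates 1 and 4 were the highest and the lowest of the 8 arrays. The log2 fold change was 0.09 (SE 0.16, 95% confidence interval -0.28 to 0.46, adjusted p = 0.90 in limma), an interval that leaves out a fold change of 1.5 in either direction. Its sign depended on 1 array, since without virgin replicate 4 the log2 fold change was -0.04.

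The 2 nearest protein-coding genes on each side of the pair did not pass the criteria. On the side of Itih2, the log2 fold change of Kin, which encodes a DNA- and RNA-binding protein, was -0.41 (SE 0.18, adjusted p = 0.42 in limma), and that of Atp5c1, the gamma subunit of the mitochondrial ATP synthase, was -0.12 (SE 0.07, adjusted p = 0.60). On the side of Itih5, it was 0.15 for the Polycomb protein gene Sfmbt2 (SE 0.12, adjusted p = 0.71) and 0.24 for the T cell kinase gene Prkcq (SE 0.45, adjusted p = 0.90). Itih2 itself, chosen with this contrast known, was at -2.81 (SE 0.17), and its difference from these 4 genes was not tested.

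**Figure D2:**
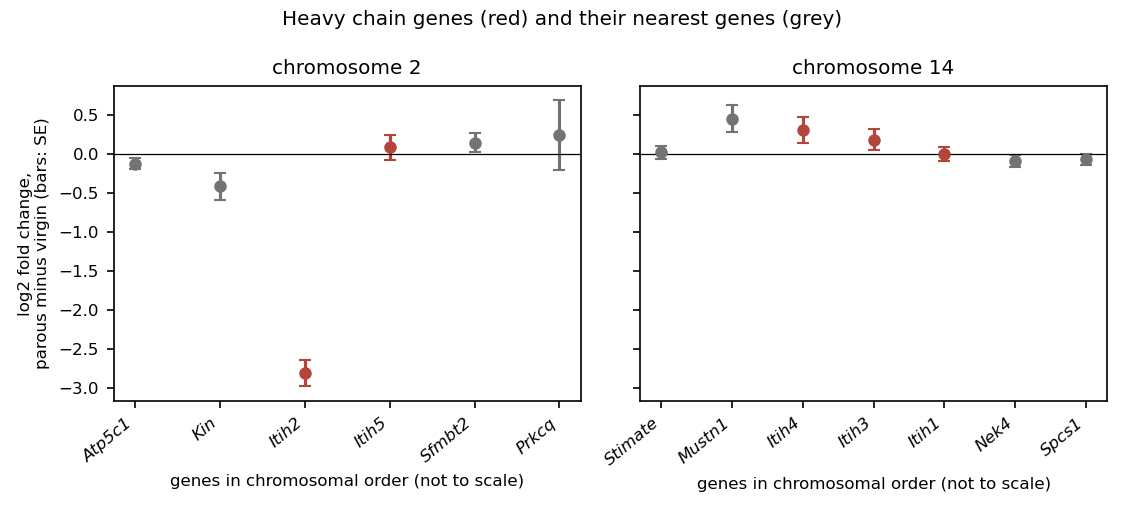
Log2 fold change, parous minus virgin (y axis, with SE of limma), of the heavy chain genes (red) and the 2 nearest protein-coding genes on each side (grey), in chromosomal order and not to scale. Itih2 lies at -2.81, and the other 12 genes lie between -0.41 and 0.46.

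The heavy chain genes Itih4, Itih3 and Itih1 lie in this order on chromosome 14 (chr14:30886476-30901986, chr14:30908572-30923787 and chr14:30929180-30943289, GRCm38.p6), and none passed the criteria. Itih4, a plasma protein that is not linked to bikunin, had log2 values of 6.36, 6.65, 6.46 and 6.36 in parous replicates 1 to 4, against 6.42, 5.94, 6.44 and 5.78 in virgin replicates 1 to 4. The parous arrays lay around virgin replicates 1 and 3, and virgin replicates 2 and 4 were lower than all others. This gave a log2 fold change of 0.31 (SE 0.16, 95% confidence interval -0.07 to 0.69, adjusted p = 0.54 in limma), and 0.02 without virgin replicates 2 and 4.

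Itih3, a partner of bikunin in the plasma complex called pre-alpha-inhibitor, had log2 values of 6.86, 6.65, 6.57 and 6.49 in parous replicates 1 to 4, against 6.64, 6.23, 6.71 and 6.23 in virgin replicates 1 to 4. Here too virgin replicates 2 and 4 were the lowest arrays while the groups overlapped. For Itih3 the log2 fold change was 0.19 (SE 0.14, 95% confidence interval -0.13 to 0.51, adjusted p = 0.68 in limma), and -0.04 without these 2 arrays.

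Itih1, which with Itih2 and bikunin forms inter-alpha-inhibitor in plasma, had log2 values of 5.33, 5.31, 5.50 and 5.24 in parous replicates 1 to 4, against 5.43, 5.32, 5.42 and 5.19 in virgin replicates 1 to 4. The groups overlapped over nearly their whole range, and all values lay under 6.35, the median of the table. Its log2 fold change was 0.01 (SE 0.09, 95% confidence interval -0.20 to 0.21, adjusted p = 0.99 in limma), and its sign changed with the processing. Of the genes that flank the cluster, Mustn1 had a log2 fold change of 0.46 (SE 0.17, adjusted p = 0.36), while Stimate, Nek4 and Spcs1 lay between -0.09 and 0.02.

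Of the hyaluronan synthases, none passed the criteria. Has1 (chr17:17833691-17855589, GRCm38.p6) had log2 values of 9.26, 9.56, 9.01 and 9.48 in parous replicates 1 to 4, against 8.89, 7.76, 8.68 and 8.37 in virgin replicates 1 to 4. The lowest parous array was above the highest virgin array, by little, and virgin replicate 2 was the lowest. The means were 9.33 ± 0.25 in parous and 8.43 ± 0.49 in virgin suspensions (SD, n = 4 pools each), with a log2 fold change of 0.90 (SE 0.24, 95% confidence interval 0.36 to 1.44, 1.87-fold, adjusted p = 0.20 in limma). It was 0.54 (adjusted p = 0.47) without virgin replicates 2 and 4.

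None of the 8 fibroblast markers passed the criteria, and they did not share a direction. Their median log2 fold change was 0.47, with Fbln1 at 1.01, Dpt at 0.93, Pdgfra at 0.92, Lum at 0.63 and Dcn at 0.31, while the collagen genes Col1a2, Col1a1 and Col3a1 were at 0.03, -0.21 and -0.24. Averaged after each gene had been set to a mean of 0, they lay at -0.12, 0.11, 0.24 and 0.61 in parous replicates 1 to 4, against -0.36, -0.52, -0.03 and 0.07 in virgin replicates 1 to 4, so the groups overlapped. The part of fibroblast number in the values of Has1 was not tested.

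Has2 (chr15:56665627-56694546, GRCm38.p6), the synthase that mouse embryos need for heart development, had log2 values of 8.38, 8.54, 7.93 and 8.43 in parous replicates 1 to 4, against 8.40, 8.63, 8.37 and 9.60 in virgin replicates 1 to 4. Virgin replicate 4 was about 1 log2 unit above the next array, and the other virgin arrays lay among the parous ones or just above them. The log2 fold change was -0.43 (SE 0.27, 95% confidence interval -1.05 to 0.20, adjusted p = 0.62 in limma), and -0.15 without virgin replicate 4.

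Has3, the third synthase, was dim and had log2 values of 4.70, 4.69, 4.63 and 4.73 in parous replicates 1 to 4, against 4.55, 4.57, 4.43 and 4.57 in virgin replicates 1 to 4. The groups did not overlap, but all values lay under the median of the table and in a narrow range. For Has3 the log2 fold change was 0.16 (SE 0.07, 95% confidence interval 0.00 to 0.31, adjusted p = 0.44 in limma).

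Cd44 (chr2:102811141-102901669, GRCm38.p6), the main surface receptor of hyaluronan, had log2 values of 10.67, 10.61, 10.43 and 10.37 in parous replicates 1 to 4, against 10.68, 10.54, 10.67 and 10.75 in virgin replicates 1 to 4. Parous replicates 3 and 4 were the lowest arrays and the groups overlapped. For Cd44 the log2 fold change was -0.14 (SE 0.09, 95% confidence interval -0.35 to 0.07, adjusted p = 0.64 in limma), an interval that leaves out a fold change of 1.5 in either direction. A probe set of this array sums probes along the whole gene, so the splice forms of Cd44 were not told apart.

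**Figure D3:**
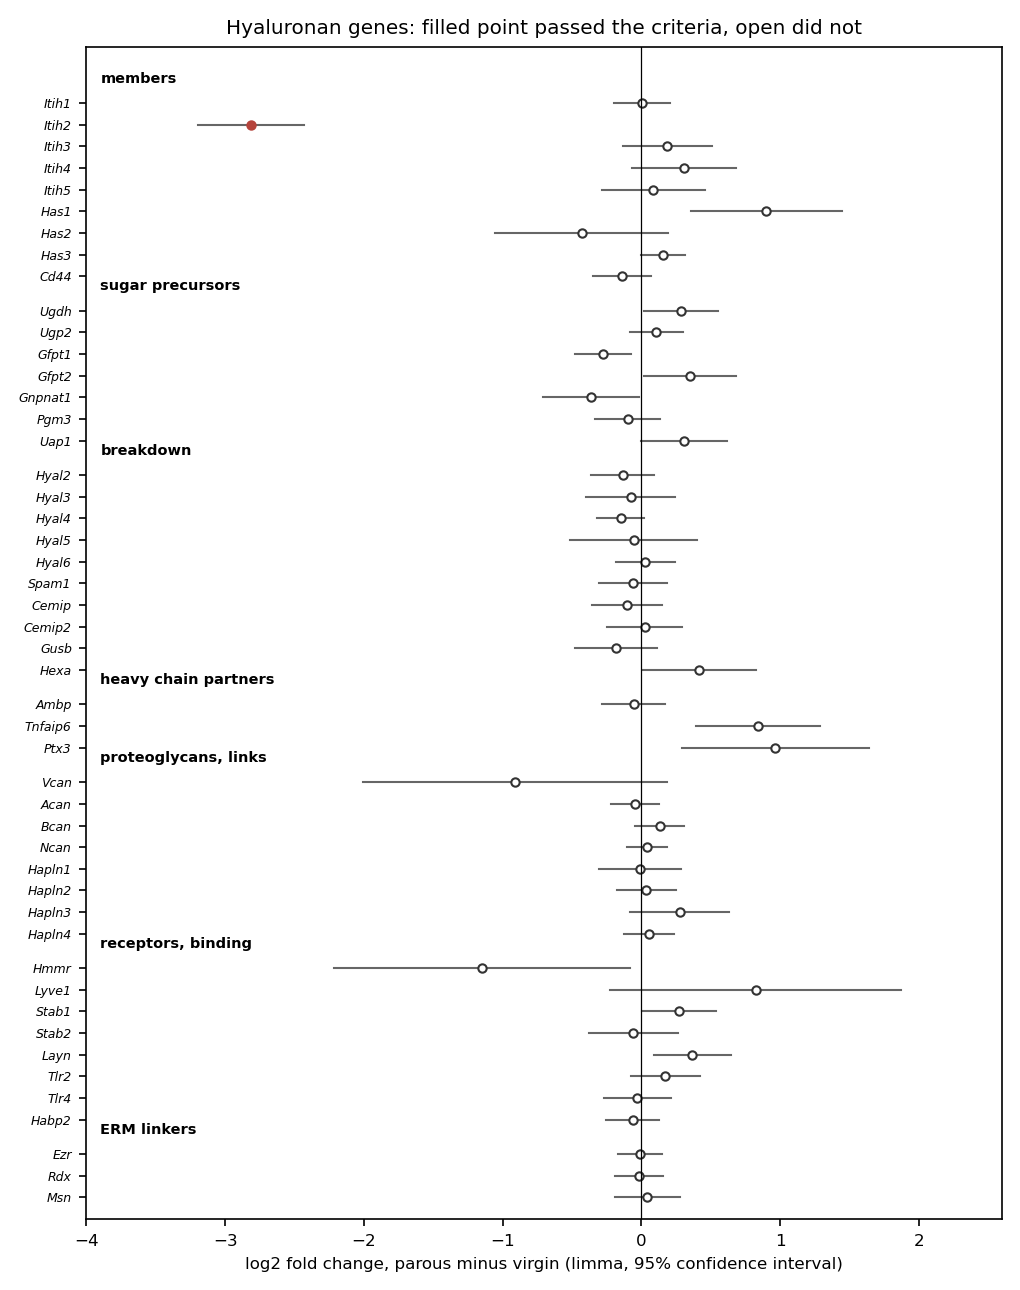
Log2 fold change, parous minus virgin (x axis), with the 95% confidence interval of limma, for the 9 members and for 39 other genes of hyaluronan metabolism grouped by role. The filled point is Itih2, at -2.81, the only gene past the criteria. Among the genes that did not pass, the intervals of Has1, Has3, Tnfaip6, Ptx3, Layn, Ugdh, Gfpt2, Hexa and Stab1 lie above 0. Those of Gfpt1, Gnpnat1 and Hmmr lie below 0.

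Other genes of hyaluronan metabolism were listed by their role, and 39 of 41 had a probe set that named them alone. None of the 39 passed the criteria in either direction. An unadjusted p under 0.05 in limma was found for 10 of the 39, against 11.4% of all probe sets. The groups did not overlap for 6 of the 39, against 7.60% of all probe sets. Because the list was chosen with earlier results of these data known, nothing is read from these shares. The log2 fold changes of the 39 genes were above 0 for 19 and below 0 for 20, with a median of -0.01. The 8 genes with the smallest unadjusted p are given with their values by role, so they were selected on this contrast.

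Of the 3 partners of the heavy chains measured, Tnfaip6 and Ptx3 were among these 8 and none passed the criteria. Tnfaip6, whose product moves heavy chains onto hyaluronan, had log2 values of 10.49, 10.85, 10.53 and 10.99 in parous replicates 1 to 4, against 10.14, 9.35, 10.13 and 9.88 in virgin replicates 1 to 4. All parous arrays were above all virgin arrays and virgin replicate 2 was the lowest. This was a log2 fold change of 0.84 (SE 0.20, adjusted p = 0.15 in limma). Ptx3, a pentraxin that binds heavy chains and TSG-6 in the hyaluronan matrix, had log2 values of 8.85, 8.91, 8.42 and 8.90 in parous replicates 1 to 4, against 8.39, 7.49, 8.29 and 7.04 in virgin replicates 1 to 4. The lowest parous array was only just above virgin replicate 1, and the gap came mainly from virgin replicates 2 and 4. The log2 fold change was 0.96 (SE 0.30, adjusted p = 0.27). Ambp, the bikunin precursor, was dim, with means of 4.35 ± 0.18 in parous and 4.40 ± 0.08 in virgin suspensions (SD, n = 4 pools each) and a log2 fold change of -0.05 (SE 0.10).

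The genes that make the sugar precursors of hyaluronan did not share a direction, with 4 of 7 log2 fold changes above 0 and 3 below. Gfpt1, the first enzyme of the hexosamine pathway, had log2 values of 8.99, 8.85, 8.67 and 8.88 in parous replicates 1 to 4, against 9.09, 9.23, 9.12 and 9.04 in virgin replicates 1 to 4. All parous arrays were lower, by small amounts (log2 fold change -0.27, SE 0.09, adjusted p = 0.29 in limma). Its paralog Gfpt2 had a log2 fold change of 0.35 (SE 0.15, adjusted p = 0.41). For Ugdh, which makes the UDP-glucuronic acid that synthases use, the log2 fold change was 0.29 (SE 0.12, adjusted p = 0.41). For Gnpnat1, a later enzyme of the hexosamine pathway, it was -0.36 (SE 0.15, adjusted p = 0.41) on the brighter of its 2 probe sets and -0.23 (SE 0.08, adjusted p = 0.36) on the other.

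Of the genes for hyaluronan breakdown, 10 were measured and their log2 fold changes ran from -0.18 to 0.42. Hyal2, a hyaluronidase attached to the cell surface, had means of 7.03 ± 0.17 in parous and 7.16 ± 0.08 in virgin suspensions, and Hyal3 had 8.23 ± 0.17 in parous and 8.31 ± 0.25 in virgin suspensions (log2 values, SD, n = 4 pools each). The differences were within the spread between arrays, with log2 fold changes of -0.13 (SE 0.10) and -0.08 (SE 0.14). The probe sets of Hyal4, Hyal5, Hyal6 and the sperm hyaluronidase Spam1 had means under 4 in both groups, in the dimmest part of the array.

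Of 8 receptors and binding proteins, Hmmr and Layn were among the 8 genes selected by p, and none passed the criteria. Hmmr, a hyaluronan-binding protein that also sits on the mitotic spindle, had log2 values of 4.43, 4.59, 4.20 and 4.26 in parous replicates 1 to 4, against 4.66, 5.93, 4.62 and 6.87 in virgin replicates 1 to 4. The separation was narrow for virgin replicates 1 and 3 and wide for virgin replicates 2 and 4 (log2 fold change -1.15, SE 0.47, adjusted p = 0.40 in limma). Layn, the receptor layilin, had a log2 fold change of 0.37 (SE 0.12, adjusted p = 0.30). The link proteins and proteoglycans, 8 genes, had log2 fold changes of -0.91 to 0.28. The lowest was that of Vcan, the large hyaluronan-binding proteoglycan versican, with log2 values of 8.15, 8.51, 8.23 and 8.58 in parous replicates 1 to 4, against 8.47, 9.88, 8.22 and 10.54 in virgin replicates 1 to 4. Virgin replicates 2 and 4 alone were high (SE 0.48, adjusted p = 0.53). The linkers Ezr, Rdx and Msn, which tie Cd44 to the actin skeleton, had log2 fold changes of -0.01, -0.02 and 0.04. Ambp, Hyal2, Hyal3, Vcan and these linkers were named after their values had been seen.

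**Figure D4:**
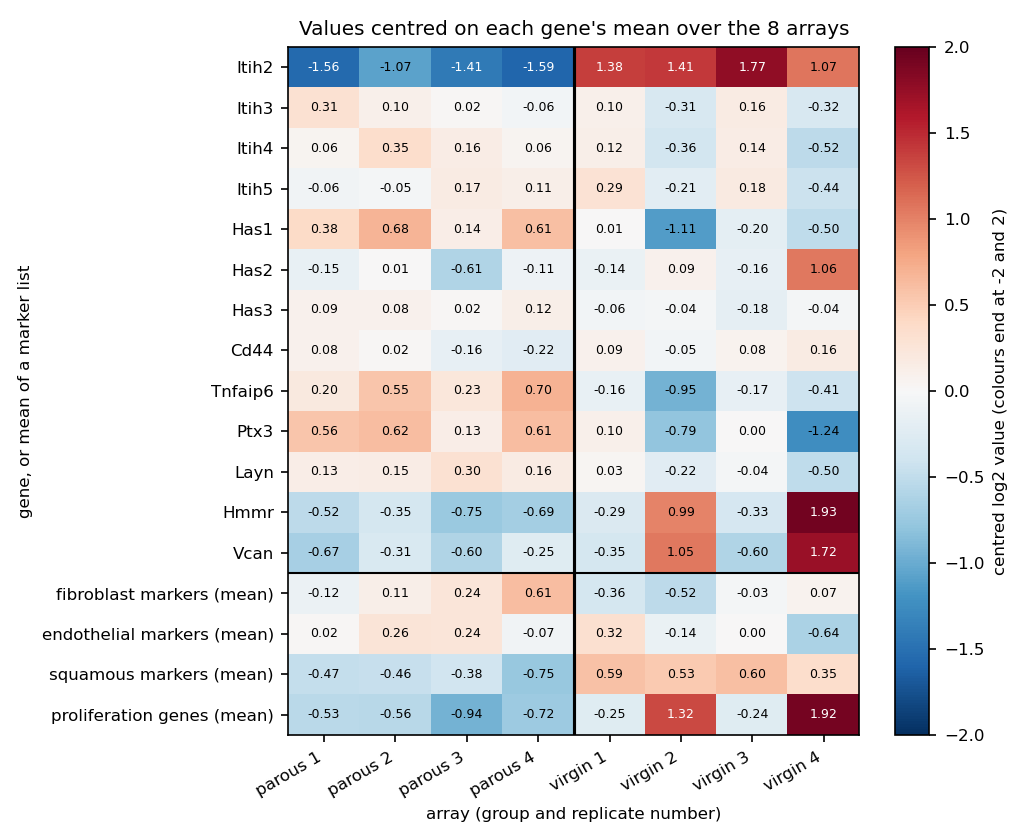
Log2 values centred on the mean of each gene over the 8 arrays (colour and number), for members and partner genes (rows above the line) and for the mean of 4 marker lists (rows under it), with the 4 parous arrays left of the 4 virgin arrays. Itih2 lies at -1.59 to -1.07 in parous and 1.07 to 1.77 in virgin arrays, while Itih3, Itih4, Itih5, Has1, Tnfaip6 and Ptx3 are lowest in virgin replicates 2 and 4.

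The virgin arrays were not alike, and this touched most members. On the first principal component of all probe sets (36.4% of the variance), the parous arrays lay at 12.7 to 25.8, virgin replicates 1 and 3 at 9.35 and 11.4, and virgin replicates 2 and 4 at -32.7 and -66.8. Genes of proliferation, such as Mki67 and Top2a, had mean centred levels of -0.94 to -0.53 in parous arrays, against 1.32 and 1.92 in virgin replicates 2 and 4, while virgin replicates 1 and 3 lay at -0.25 and -0.24. None of 9 proliferation genes passed the criteria. Endothelial markers were at -0.07 to 0.26 in parous arrays, against -0.14 and -0.64 in virgin replicates 2 and 4, while virgin replicates 1 and 3 lay at 0.32 and 0.00. Itih3, Itih4, Itih5 and Has1 all had their 2 lowest values in virgin replicates 2 and 4. Has2 had its 2 highest values in these arrays. Its log2 fold change was -0.43 on all arrays and -0.07 without these 2. The part of the mix of cells in these patterns was not tested.

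The suspensions held the cells that the labels name and others. The 7 luminal markers had mean log2 values of 10.5 to 13.2 and the 8 basal and myoepithelial markers 8.45 to 12.8. The 8 fibroblast and 6 endothelial markers reached 9.49 to 12.7 and 9.97 to 12.0, although the labels speak of epithelial cells. Pericyte (4), macrophage (5) and lymphocyte (5) markers had means of 7.54 to 11.6, 8.01 to 10.6 and 6.48 to 10.2. Adipocyte (4) and mesothelial (4) markers stayed at or under 6.44.

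The genes whose values over the 8 arrays were most like those of Itih2, of 19934 compared, were Sprr1a (Pearson r = 0.99), Cldn6, Krt4, R3hdml and Dsp (each r between 0.98 and 0.99). The likeness rests largely on the step between the groups. Within groups r was 0.84 for Sprr1a, 0.64 for Cldn6, 0.73 for Krt4, 0.56 for R3hdml and 0.42 for Dsp. These genes were not selected by r within groups. Among the members, Itih4 had a within-group r of 0.79 with Itih2, but -0.46 over the 8 arrays. For Has3 these values were -0.67 and -0.89. Sprr1a, a precursor of the cornified envelope, and Krt4, a keratin of mucosal squamous epithelium, had log2 fold changes of -1.96 and -2.74. Those of the claudin Cldn6, R3hdml and the desmosome protein desmoplakin (Dsp) were -1.47, -3.11 and -1.004. All 5 passed the criteria, which follows largely from selecting them by likeness to a gene with a large step between the groups.

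Mean centred levels did not overlap between parous and virgin arrays for the squamous, hormone-sensing luminal, luminal, basal and luminal progenitor lists. The proliferation genes did not overlap either, with a highest parous level of -0.53 and a lowest virgin level of -0.25. For the fibroblast, endothelial, pericyte, macrophage, lymphocyte, adipocyte and mesothelial lists the levels overlapped. Of 7 squamous markers, 3 passed as lower in parous suspensions (Krt4, Krt6a and Sprr1a), against 0.158% of all probe sets. The lists were chosen with earlier results of these data known, so nothing is read from this share. Krt4 and Sprr1a are also among the genes selected above by likeness to Itih2. That likeness rests largely on the same step between the groups and adds nothing to it. The other squamous markers were dimmer and did not pass. Their log2 fold changes were 0.05 for Ivl, -0.10 for Krt1, -0.10 for Krt10 and -0.39 for Lor. The mean centred level of the squamous list was -0.75 to -0.38 in parous arrays and 0.35 to 0.60 in virgin arrays. Of 4 measured markers of hormone-sensing luminal cells none passed, with a median log2 fold change of -1.03 and mean centred levels of -0.87 to -0.26 in parous arrays and -0.03 to 0.82 in virgin arrays. For the luminal markers as a whole these levels were -0.24 to -0.07 in parous arrays and -0.02 to 0.30 in virgin arrays. For the basal and myoepithelial markers they were -0.24 to -0.06 in parous arrays and -0.01 to 0.27 in virgin arrays. Both gaps were narrow. The basal and myoepithelial markers did not share a direction. Krt14 was at -0.75, Trp63 at -0.60, Krt5 at -0.52, Oxtr at -0.33, Cnn1 at -0.18 and Acta2 at -0.10. Mylk was at 0.20 and Myh11 at 0.24 (log2 fold changes). The mean centred level of the 5 luminal progenitor markers ran the other way. It was 0.08 to 0.15 in parous arrays and -0.24 to -0.01 in virgin arrays. Of these 5, Elf5, Aldh1a3, Cd14 and Csn3 were higher in parous suspensions, while Kit had a log2 fold change of -0.12. The luminal markers ran from -0.60 for Cldn7 to -0.08 for Epcam, with a median log2 fold change of -0.33. Krt19 among them had an adjusted p of 0.044 in limma but was only 1.39-fold lower, under the fold criterion. No luminal, basal and myoepithelial or luminal progenitor marker passed the criteria. The part of these cell types in the values of Itih2 was not tested.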

How the data were processed

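Total RNA of 8 pools of mammary cells was measured on 1 Affymetrix Mouse Gene 1.0 ST array each. The authors deposited log2 values made with rma() of the affy package (version not given in the sources used here), which corrects background, quantile normalizes the arrays and summarizes probes to 1 value per probe set. Array medians were 6.29 to 6.43. The pools counted as replicates, and the number of arrays limits the precision.

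Probe sets were named through the array annotation and a table of current symbols, which gave 21640 probe sets with 1 gene, 1321 with several and 11799 with none here. Parous and virgin arrays were compared in R 4.3.3 with limma 3.58.1 (lmFit and eBayes, 2-sided, no covariate), with p-values adjusted by Benjamini-Hochberg across the whole table of 34760 probe sets. The study's methods supplied the criteria. The code was tested on simulated data. A gene with several probe sets was represented by the one with the highest mean, and the score of a list is the mean of its centred genes. The members and lists were chosen with earlier results of these data known. Named were all members, the 8 pathway genes with the smallest p, the 2 genes on each side of both heavy chain clusters and the 5 genes most correlated with Itih2. Promoter sequences and positions were those of RefSeq on GRCm38.p6, where 8 of the 10 members had a promoter entry. Alternatives were a replicate block, other scaling, trend, array weights, unmoderated statistics, other filters and fold criteria, and leaving out arrays, with the removal of virgin replicates 2 and 4 together added after seeing the data.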

Additional observations from a re-analysis of the deposited data

Results flagged for a closer look

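In virgin suspensions, Has3 had a log2 value of 4.43 in virgin replicate 3, away from the other 3 virgin arrays at 4.55 to 4.57. The gap took 0.864 of the range of the group, above Dixon's 95% critical value for 4 samples. It was the only one among 18 groups of 4 arrays (9 members in parous and virgin mice), and chance alone marks about 1 in 20 groups. The probe set is dim.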

How the results depend on the processing

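The call of Itih2 held under all 17 alternatives, with log2 fold changes of -2.98 to -2.69 and adjusted p-values of 0.000286 to 0.0205 (limma), and no other member and none of the pathway genes passed under any of them. Each experiment of the study held a pool of either group, but no source used here ties the replicate number to an experiment. Same-numbered arrays had correlations of their deviations of 0.12, 0.18, -0.06 and 0.31, and 4 of 8 arrays correlated best with their own number, so the pairing was not settled and the block was kept as an alternative. With the replicate block, Itih2 had an adjusted p of 0.0148 (limma), and 25 probe sets were higher and 24 lower in parous suspensions, against 83 and 55 without it, and 43 of these 49 were among the 138 found without it. Unmoderated statistics gave 6 higher and 5 lower (3642 before adjustment at the same p threshold), and a fold change over 2 left 29 lower. Leaving out 1 array gave 27 to 110 higher and 15 to 69 lower, the fewest without parous replicate 3, and the loss of any parous array or of virgin replicate 2 moved both counts by over 1.5 times. Without virgin replicates 2 and 4 together 48 were higher. Values near 0 changed sign. For Itih1 the log2 fold change was -0.023 after a second quantile normalization, -0.0114 with arrays centred on their medians, -0.0154 with array weights, -0.0466 to 0.0397 without 1 array and -0.0796 without virgin replicates 2 and 4. Without those 2 arrays it was -0.0366 for Itih3 and -0.1951 for Itih5, which ran from -0.0444 to 0.1986 without 1 array. The cause was not tested. Itih1 and Has3 had no value after the removal of dim probe sets. With 4 pools a group, the intervals of Itih4, Has1 and Has2 do not leave out a 1.5-fold difference.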

Other observations

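Lyve1, the hyaluronan receptor of lymphatic vessels and some macrophages, varied more between arrays than between groups. It had log2 values of 10.55, 10.11, 10.97 and 11.18 in parous replicates 1 to 4, against 10.49, 8.84, 10.90 and 9.28 in virgin replicates 1 to 4, and was named after its values had been seen. Virgin replicates 2 and 4 were the lowest arrays, and the log2 fold change was 0.83 (SE 0.46, adjusted p = 0.56 in limma).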
